A study of Mus musculus with 6 samples.

Results

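The genes described here make and remove the tag ISG15 in mouse skin: Isg15 itself, Uba7, Ube2l6, Herc6 and Usp18. They were taken as every probe set of the array whose single gene symbol in the platform annotation is one of these names. This rule found 9 of the 34945 single-symbol probe sets, for 4 of the 5 genes: 3 for Uba7, 1 for Ube2l6, 4 for Herc6 and 1 for Usp18. Isg15 had none, because its probe set is annotated to Isg15 and the pseudogene Gm9706 together. At gene level, where the brightest probe set stands for a gene, they are 4 of 18193 genes.

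Skin RNA came from 6 mice of the inbred strain C3H/HeJ, 1 oligonucleotide array per mouse. One group of 3 mice had alopecia areata, an autoimmune hair loss, and was sampled in affected, hairless skin, and the other 3 mice were unaffected. The study compared affected with unaffected animals. No genetic change or treatment is labelled in either group, both share the strain, and the labels used here name no age, sex or body site. Values are log2 RMA signals, so a difference of 1 is a doubling of signal, and levels of different probe sets are not comparable with each other. Unaffected replicate 3 stands apart from the other unaffected arrays over all genes (correlations of 0.929 and 0.906 with them, against 0.981 between them), so results are also given without it.

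ISG15 is a ubiquitin-like protein that interferons induce and that is joined to other proteins by a chain of enzymes parallel to that of ubiquitin. UBA7 activates it, UBE2L6 carries it, and in mice HERC6 attaches it to the target, a task that HERC5 has in humans. USP18 cuts it off again and, apart from that activity, binds the type I interferon receptor and dampens its signal. In skin, ISG15 and its enzymes are known as part of the interferon response of keratinocytes and immune cells.

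The stretch just before the annotated gene start is shown for Isg15, the tag, and for Uba7, the enzyme that passed the test at gene level. The sequences are from RefSeq (GRCm38.p6), each written in the direction of its gene and ending at the base before the start. Capitals mark matches, on either strand, to AANNGAAA, a core bound by interferon regulatory factors, or to the longer response element GAAANNGAAA. The Isg15 stretch is chr4:156200819-156200948 on the minus strand and the Uba7 stretch is chr9:107975437-107975566 on the plus strand.

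Isg15: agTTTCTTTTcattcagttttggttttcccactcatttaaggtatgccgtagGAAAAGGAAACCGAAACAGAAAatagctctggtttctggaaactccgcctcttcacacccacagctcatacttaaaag

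Uba7: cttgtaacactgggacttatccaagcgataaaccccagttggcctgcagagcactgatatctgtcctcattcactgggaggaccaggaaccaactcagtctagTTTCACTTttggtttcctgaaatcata

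The search covered 250 bases before the start. The Isg15 window held 4 matches to AANNGAAA and the Uba7 window 1, on the opposite strand, 27 to 20 bases before the start. This short core occurred in 21.3% of 32536 promoter windows in the table. The response element GAAANNGAAA, which contains the short core, occurred in 2.98% of windows. It was found 3 times in Isg15, as overlapping copies between 78 and 57 bases before the start, and not in Uba7. The windows of Ube2l6 and Herc6 held no match to either, and none of the 4 windows held TTCNNNGAA, the core of the gamma-activated site, found in 7.04% of windows. Usp18 has no entry in that table. These are letters in a window and no measure of binding.

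Signals of the ISG15 system were higher in alopecic skin. Of its 9 probe sets, 8 were higher in each alopecic array than in each unaffected array, against 5.79% of all probe sets. The median log2 difference over the 9 was 2.23, and that over all probe sets was -0.02. After adjustment over all probe sets 2 passed the threshold of 0.05, 1 of Uba7 and 1 of Herc6, where 0.166% of all probe sets passed as higher. At gene level Uba7 rose, and 0.264% of genes did so. Ube2l6 and Usp18 missed the threshold narrowly. Herc6 missed it clearly by its brightest probe set (log2 difference 0.55, limma adjusted p = 0.606), and less so with the mean of its probe sets (1.81, adjusted p = 0.0781). In bulk skin, a changed share of expressing cells and a changed amount of RNA per cell cannot be told apart.

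**Figure D1:**
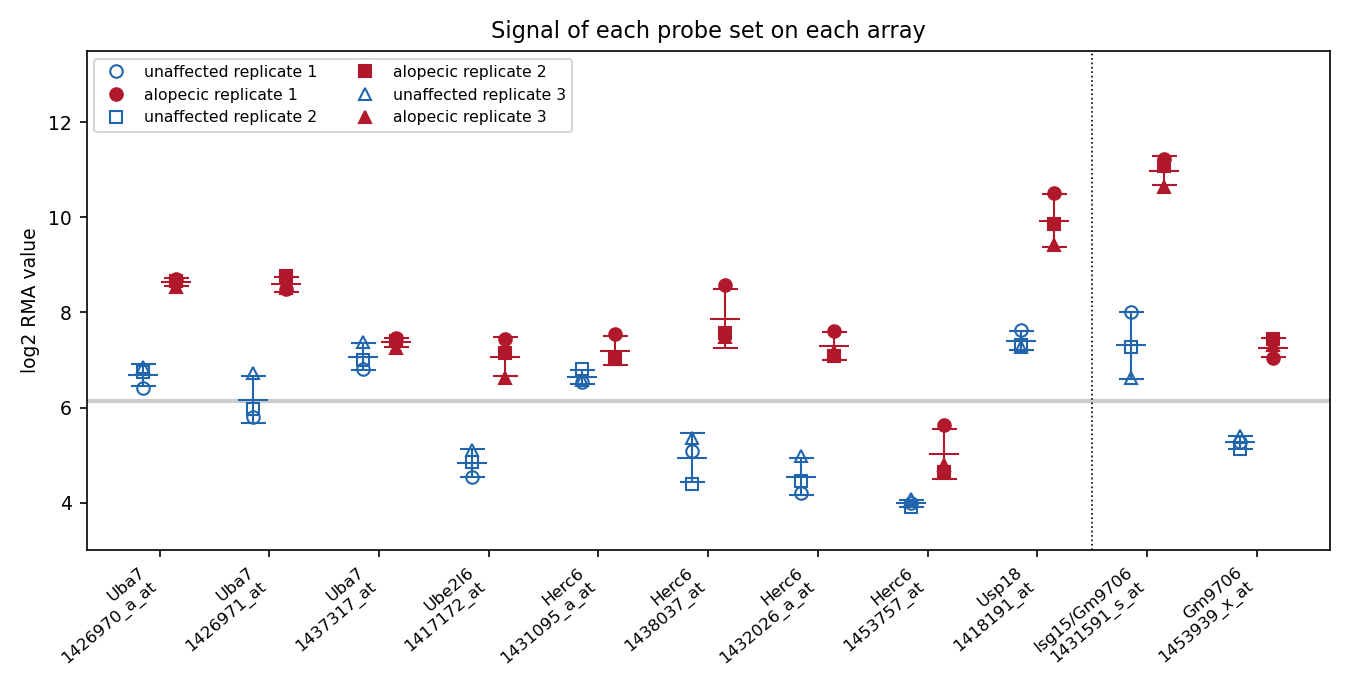
Log2 RMA value (vertical axis) of each probe set (horizontal axis) on each array; open blue symbols are unaffected and filled red symbols alopecic mice, bars are the mean and SD of 3 arrays, and the grey band spans the array medians, 6.11 to 6.17. Left of the dotted line only Uba7 1437317_at overlaps between the groups; right of it stand the probe sets annotated to Isg15 with Gm9706 and to Gm9706.

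The tag itself was seen only through a shared probe set. Probe set 1431591_s_at, annotated to Isg15 and Gm9706 together, stood at 11.22, 11.07 and 10.64 in alopecic replicates 1, 2 and 3 and at 8.02, 7.27 and 6.63 in unaffected replicates 1, 2 and 3. The groups did not overlap, and the lowest alopecic value was 2.62 above the highest unaffected one. Its log2 difference was 3.67 (SE 0.37), or 12.7-fold (limma adjusted p = 0.0493 over 45037 probe sets of any annotation, of which 0.14% passed as higher). With 1 array left out in turn the difference ran from 3.33 to 4.03, and it passed in 1 of 6 cases, without unaffected replicate 3 (adjusted p = 0.0431, others up to 0.277). A second probe set, 1453939_x_at, is annotated to Gm9706 alone. It stood between 7.05 and 7.44 in alopecic and between 5.13 and 5.41 in unaffected skin. It differed by 1.99 (SE 0.15) and passed with a smaller adjusted p than the shared probe set (limma adjusted p = 0.0163 over 45037 probe sets). With 1 array left out this probe set too passed in 1 of 6 cases, without unaffected replicate 3. Its suffix marks probes that can bind related transcripts. The signal of neither probe set can be assigned to Isg15 or to its pseudogene.

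Uba7, the activating enzyme, was 3.89-fold higher. Its brightest probe set, 1426970_a_at, stood at 8.70, 8.67 and 8.54 in the alopecic arrays and at 6.42, 6.75 and 6.86 in the unaffected arrays. The alopecic values lay close together, and all of them were well above the unaffected ones. The log2 difference was 1.96 (SE 0.15, 95% interval 1.59 to 2.33, limma adjusted p = 0.0133 over all genes). It kept its call without unaffected replicate 3 (adjusted p = 0.0263) and lost it without any one of the other 5 arrays (adjusted p from 0.065 to 0.0958), while the difference stayed between 1.83 and 2.05.

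The other probe sets of Uba7 did not respond alike. Probe set 1426971_at read 8.49, 8.76 and 8.51 in the alopecic arrays against 5.80, 5.98 and 6.73 in the unaffected arrays, without overlap. It differed by 2.42 (SE 0.26, limma adjusted p = 0.0548 over all probe sets). Probe set 1437317_at read 7.47, 7.39 and 7.26 against 6.82, 7.00 and 7.38, and its groups overlapped. Its difference was 0.30 (SE 0.17, 95% interval -0.11 to 0.72, adjusted p = 0.897). The response of the brightest probe set exceeded that of 1437317_at by 1.66, with no overlap between the groups in the per-array difference. An exact two-sided permutation test gave p = 0.1, the smallest that 20 assignments of 6 arrays allow. The adjusted p was 0.125 over 5 pairs of probe sets, chosen after the values were seen. Probe set 1426971_at exceeded the brightest in response by 0.46, with overlap (exact permutation p = 0.2, adjusted p = 0.2).

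Ube2l6, the carrier enzyme, had 1 probe set, 1417172_at, with values of 7.44, 7.15 and 6.63 in the alopecic arrays and 4.54, 4.86 and 5.11 in the unaffected arrays. The unaffected values lay below the array medians, where array differences tend to be compressed, and the groups did not overlap. The log2 difference was 2.23 (SE 0.26, 95% interval 1.60 to 2.86), or 4.70-fold, with a limma adjusted p of 0.0531 over all genes. It crossed the threshold after quantile normalization (adjusted p = 0.046) and after centring each array on its median (adjusted p = 0.0496). With any 1 array left out it did not (adjusted p from 0.0704 to 0.25).

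Herc6, the ligase, gave different answers from its 4 probe sets. The brightest, 1431095_a_at, read 7.55, 7.02 and 7.05 in alopecic and 6.54, 6.82 and 6.58 in unaffected arrays, with a gap of 0.19 between the groups. Its difference was 0.55 (SE 0.18, 95% interval 0.10 to 1.01, limma adjusted p = 0.606 over all genes). Probe set 1432026_a_at read 7.62, 7.08 and 7.17 against 4.21, 4.45 and 4.98. These groups stood 2.10 apart.

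By that probe set Herc6 rose, with a difference of 2.74 (SE 0.25, limma adjusted p = 0.0287 over all probe sets), or 6.70-fold. It passed in 1 of 6 fits with an array left out, again that without unaffected replicate 3 (adjusted p = 0.0293, others up to 0.191). Probe set 1438037_at read 8.58, 7.56 and 7.48 against 5.08, 4.39 and 5.37 and differed by 2.93 (SE 0.39, adjusted p = 0.101). The dimmest, 1453757_at, read 5.63, 4.65 and 4.79 against 3.99, 3.92 and 4.07 and differed by 1.03 (SE 0.27, adjusted p = 0.555). All 4 were higher in each alopecic array than in each unaffected array, as were 5.79% of all probe sets. They share the gene and the mice, so they are not separate results. The size ran from 1.47-fold to 7.62-fold. The alopecic means of the 3 brighter probe sets lay between 7.20 and 7.87, and their unaffected means were 6.65, 4.95 and 4.55. The last 2 of these, and the unaffected mean of 1453757_at (3.99), lay below the array medians, where array differences tend to be compressed. The files do not say which transcripts each probe set detects. The 3 other probe sets exceeded the brightest in response by 2.19, 2.38 and 0.48 (exact two-sided permutation p = 0.1 each, adjusted p = 0.125 over 5 pairs of probe sets, chosen after the values were seen).

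Usp18, the protease that removes ISG15, had the largest gene-level difference of the 4 genes. Its probe set 1418191_at read 10.51, 9.86 and 9.42 in the alopecic arrays and 7.64, 7.32 and 7.28 in the unaffected arrays. The groups stood 1.78 apart, and the alopecic arrays spread more (SD 0.55) than the unaffected ones (SD 0.20). The difference was 2.52 (SE 0.29, 95% interval 1.79 to 3.24), or 5.73-fold, with a limma adjusted p of 0.0563 over all genes. It passed when genes below the median mean were left out (adjusted p = 0.03) and when each array was centred on its median (adjusted p = 0.049). It did not pass after quantile normalization (adjusted p = 0.0558) or with any 1 array left out (adjusted p from 0.065 to 0.276). Without unaffected replicate 3 it was 2.45 (adjusted p = 0.129).

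**Figure D2:**
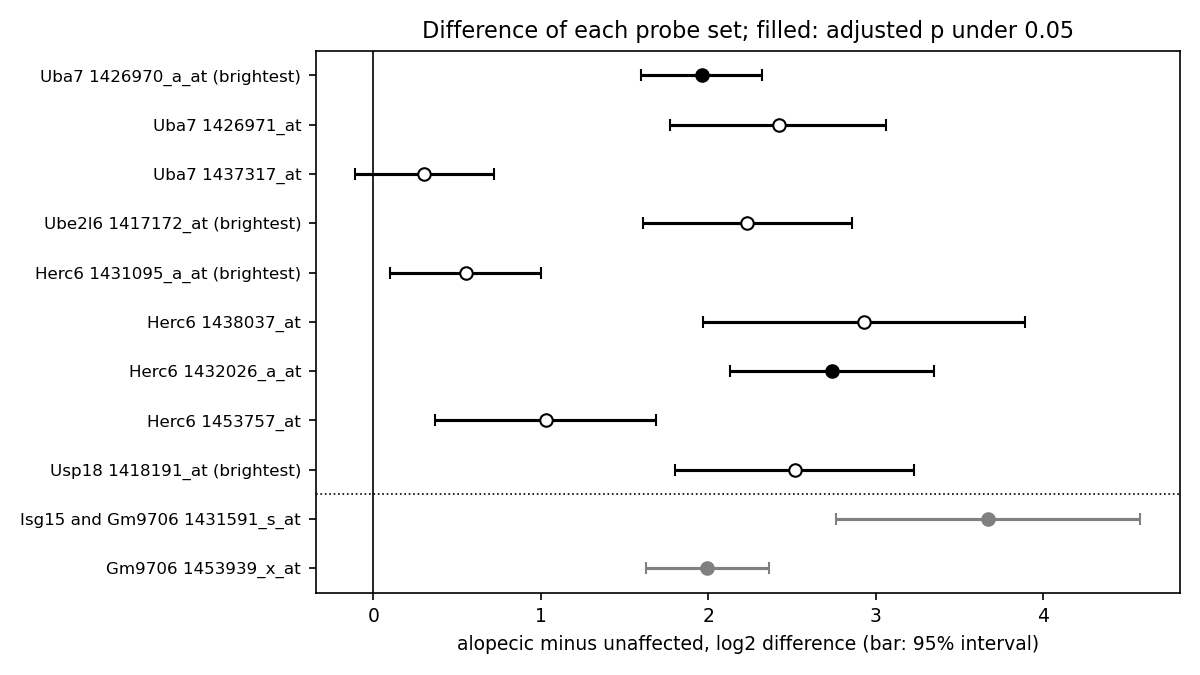
Alopecic minus unaffected log2 difference (horizontal axis) of each probe set, with 95% intervals from limma; filled circles have an adjusted p under 0.05 over the probe sets tested, and grey circles below the dotted line are the probe sets outside the 4 genes. The intervals of 6 of the 9 probe sets lie above 1.5, and those of Uba7 1437317_at, Herc6 1431095_a_at and Herc6 1453757_at lie lower.

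The responses of the 4 genes were set against each other within arrays, by their brightest probe sets. Uba7, Ube2l6 and Usp18 differed from one another by 0.27 to 0.56 in response, with overlapping groups. Usp18 exceeded Uba7 by 0.56 and Ube2l6 by 0.28 (exact two-sided permutation p = 0.3 and p = 0.5, adjusted p = 0.45 and 0.5 over 6 pairs). Herc6 responded less than Uba7, Ube2l6 and Usp18 by 1.41, 1.68 and 1.96, without overlap (exact permutation p = 0.1, adjusted p = 0.2 each). No pair could reach 0.05 in this design. With the mean over all probe sets of a gene, an alternative chosen after seeing the data, Uba7 minus Herc6 turned to -0.25. The other differences with Herc6 kept their direction and shrank, to 0.42 for Ube2l6 minus Herc6 and -0.70 for Herc6 minus Usp18. Uba7 minus Ube2l6 went from -0.27 to -0.67.

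The arrays of a group were not alike. Alopecic replicate 1 held the highest alopecic value of 8 of the 9 probe sets, and alopecic replicate 3 the lowest of 5. The mean of the 4 genes' centred values was 1.25, 0.87 and 0.61 in alopecic replicates 1, 2 and 3, and -1.02, -0.86 and -0.84 in the unaffected arrays. Unaffected replicate 3 held the highest unaffected value of 7 of the 9 probe sets. Without it the same gene, Uba7, was the 1 that passed at gene level, and 3 of the 9 probe sets passed, 1426970_a_at, 1426971_at and 1432026_a_at, where 0.132% of all probe sets passed as higher.

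Markers of leukocytes, T cells and natural killer cells were mostly higher too, while the means of most other marker lists overlapped between the groups. The leukocyte markers Ptprc, Cd52, Coro1a and Laptm5 averaged 10.07 to 11.25 in alopecic and 8.67 to 9.14 in unaffected arrays, all 4 without overlap and none past the threshold. Over all genes 6.93% were higher without overlap and 0.264% passed as higher. Of 6 measured T cell markers 5 were higher without overlap (list mean 7.49 to 8.42 against 6.54 to 6.72), and none passed the threshold. Cd4 was the exception, lower in every alopecic array at -0.16 (95% interval -0.46 to 0.13). The 3 natural killer cell markers did not overlap between the groups either (list mean 7.28 to 8.54 against 5.36 to 5.65), and none passed. Gzmb differed by 4.44 and Nkg7 by 2.19, but the defining Ncr1 by 0.19 (95% interval -0.10 to 0.48), at dim means of 4.58 and 4.39. Macrophage marker means overlapped, at 8.45 to 10.47 and 8.46 to 9.97, and the B cell markers Ms4a1, Cd79a and Cd79b were below the array medians on all arrays. Of the 4 plasmacytoid dendritic cell markers, Bst2, itself an interferon-induced gene, rose. Irf8 was 2.32 higher without overlap (limma adjusted p = 0.0997), while the differences of Siglech and Ccr9 were -0.34 and -0.24. Alopecic replicate 1 was the highest alopecic array in 10 of the 12 marker lists, these included, all but the hair and adipocyte lists. The part of these cells in the ISG15 system's difference was not tested. Keratinocyte markers averaged 13.11 to 13.57 and 13.30 to 13.48, as befits skin. Their members did not move alike. Krt5 and Krt14 were higher in every alopecic array, by 0.40 and 0.48, and Krt15 was lower in every one, at -0.86. None of these passed the threshold, and the other keratinocyte markers overlapped. Hair shaft and sheath markers averaged 5.49 in unaffected replicate 3 and 11.95 to 13.89 elsewhere. The dendritic cell, fibroblast, muscle and adipocyte lists had median differences of 0.05, 0.05, 0.17 and -0.56, and their means overlapped between the groups. Among them the dendritic cell marker Itgax was 1.66 higher without overlap (SE 0.52). As a measure of RNA integrity, beta-actin control probes at the 3' end exceeded those at the 5' end by 0.47 to 1.30 in alopecic and 0.39 to 1.24 in unaffected arrays, with overlap.

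Genes sharing a symbol stem with the 4 genes were compared next. Most belong to the same enzyme families, but the stems also take in symbols such as Ube2d-ps, Ube2cbp, Usp6nl and Usp46os2. Usp18 had the highest difference of 51 measured Usp genes. The other 50 lay between -1.18 and 0.44, with a median over the family of 0.02, and 0 of 51 passed (2 had an unadjusted limma p under 0.05 as higher, 4.8% of all genes having one). The largest of the others were Usp13 at -1.18 (SE 1.08), Usp2 at -1.11 (SE 0.55) and Usp54 at -0.73 (SE 0.29), and without unaffected replicate 3 Usp13 was at -0.02 and Usp2 at -0.49. Usp14, a protease of the proteasome that was reported to react with ISG15, differed by 0.22 (SE 0.21). Usp18 exceeded it by 2.29 in response, without overlap (exact permutation p = 0.1, adjusted p = 0.1 over 2 pairs).

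Among 33 genes with the stem Ube2, mostly carrier enzymes, Ube2l6 came first and the family median was 0.00. Ube2c, a carrier enzyme of cell division, followed at 1.60 (SE 1.19), but at 0.33 without unaffected replicate 3. Ube2t and Ube2d2a were at 0.50 and 0.46, and 0 of 33 passed (2 had an unadjusted limma p under 0.05 as higher). Uba7 stood at 1.96 where Uba6, an activating enzyme of ubiquitin and FAT10, was at 0.38 (SE 0.23) and Uba3, of the NEDD8 pathway, at 0.20 (SE 0.20), or 0.15 and 0.05 without unaffected replicate 3. The other Herc genes lay between -0.38 and 0.02, with Herc3 at 0.02 (SE 0.22). Herc6 exceeded Herc3 by 0.53 by the brightest probe sets and by 1.64 with the mean over probe sets (exact permutation p = 0.1 for the former). Ube2l3 and Uba1, the closest relatives of Ube2l6 and Uba7, were not analysed here.

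**Figure D3:**
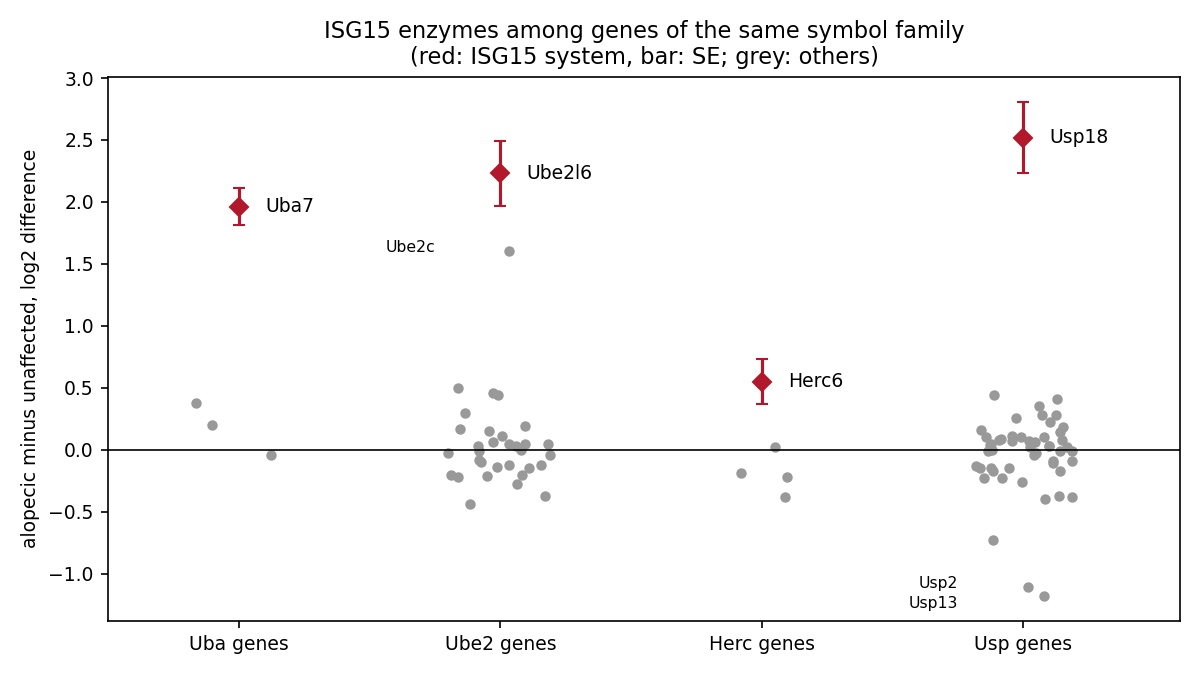
Alopecic minus unaffected log2 difference (vertical axis) of genes with the symbol stems Uba, Ube2, Herc and Usp (horizontal axis); red diamonds with SE bars are the ISG15 system genes and grey points the other members, 1 brightest probe set per gene. Each red diamond is the highest point of its column, Herc6 at 0.55 and Usp18 at 2.52.

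Genes of other proteins that act with ISG15 were counted in the same fit. Of 14 partner genes 1 rose (0.264% of all genes did) and 0 fell (0.011% of all genes fell). An unadjusted limma p under 0.05 as higher was found for 5 of the 14 (4.8% of all genes). Without overlap 6 were higher, where 6.93% of all genes were, and the median difference was 0.28 against -0.01 over all genes. Without unaffected replicate 3 the partner median was 0.16. The gene that rose was Trim25, a ubiquitin ligase of the RIG-I pathway that can also attach ISG15, by 1.49 (SE 0.13, limma adjusted p = 0.0229). It passed in 0 of the 6 fits that leave out 1 array (limma adjusted p from 0.0538, without unaffected replicate 3, to 0.165). Arih1, another ligase reported for ISG15, was at -0.29 (SE 0.17). Itgal and Itgb2, which form the LFA-1 receptor of secreted ISG15 and are leukocyte genes, were at 1.59 (SE 0.47) and 2.04 (SE 0.66), neither past the threshold. A second probe set of Itgal was at 0.05. Of the proteins that USP18 binds at the type I interferon receptor, Stat2 was at 2.19 (SE 0.36, adjusted p = 0.146) and Ifnar2 at 0.71 (SE 0.28, adjusted p = 0.692).

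The interferon signalling genes upstream had 13 measured members. Of these 2 rose (0.264% of all genes did), 0 fell and 6 were higher without overlap (6.93% of all genes were). An unadjusted limma p under 0.05 as higher was found for 6 (4.8% of all genes). The median difference was 0.33 (0.48 without unaffected replicate 3). The 2 that rose were the transcription factors Irf1, by 2.93 (SE 0.15, limma adjusted p = 0.00607), and Irf7, by 2.34 (SE 0.25, adjusted p = 0.0377). With 1 array left out in turn, Irf1 passed in 5 of 6 cases (adjusted p from 0.0126 to 0.0679) and Irf7 in 1 of 6 (adjusted p = 0.0977 without unaffected replicate 3). Irf9, a DNA-binding partner of STAT2, was at 1.78 (SE 0.25, adjusted p = 0.0959). The receptor chains Ifngr1, Ifngr2 and Ifnar1 were at -0.39, -0.07 and 0.17, with overlapping groups.

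Proteins reported to carry ISG15 gave 17 measured genes, Ube2l6 among them. Of these 3 rose (0.264% of all genes did), 0 fell and 11 were higher without overlap (6.93% of all genes were). An unadjusted limma p under 0.05 as higher was found for 11 (4.8% of all genes). The median difference was 1.49 (1.49 also without unaffected replicate 3). Those that rose were Gbp2, an interferon-induced GTPase, by 3.92 (SE 0.17, limma adjusted p = 0.00342), Ddx58, the RNA sensor RIG-I, by 1.58 (SE 0.17, adjusted p = 0.0377), and Trim25. Many genes of this list are interferon-induced themselves. Gbp2 passed with any 1 array left out (adjusted p from 0.0126 to 0.0364), and Ddx58 with none (0.0517 to 0.216). The other probe sets of Ddx58 were at 1.57 and 0.11.

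The genes whose pattern over the arrays was most like the mean of the 4 ISG15 system genes were then sought among 5297 genes with a range of at least 1 log2 unit. Correlations are over 6 arrays that fall into 2 groups, so they mostly follow the group difference, and 140 genes had r of at least 0.95. The closest was Rnf213, a large ubiquitin ligase that has been reported to bind ISG15-tagged proteins, with r = 0.9979 and a difference of 1.96 (SE 0.20). Irf7 followed with r = 0.9975, then BC023105 (0.9970), Ifng, the gene of interferon gamma (0.9963), AW112010 (0.9960) and the GTPase gene Irgm2 (0.9951). Parp12 (0.9948), Ddx58 (0.9948), Parp14 (0.9946) and Dhx58 (0.9945) completed the 10. Of these 8 rose, where 0.264% of all genes did, with AW112010 and Parp12 the exceptions (limma adjusted p = 0.0599 each). The 10 were chosen for a pattern that mostly follows the group difference, so a high count was built in. Without unaffected replicate 3, 2 of the 8 passed, Irgm2 and Parp14. Ifng read 7.51, 6.76 and 6.69 in the alopecic arrays and 4.54, 4.86 and 4.86 in the unaffected arrays. Its peak in alopecic replicate 1 largely follows from its choice by likeness to the 4 genes and is no separate result. Second probe sets of Rnf213 and Parp14 were at -0.20 and 0.83, and those of Dhx58 at 0.01 and 0.35.

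**Figure D4:**
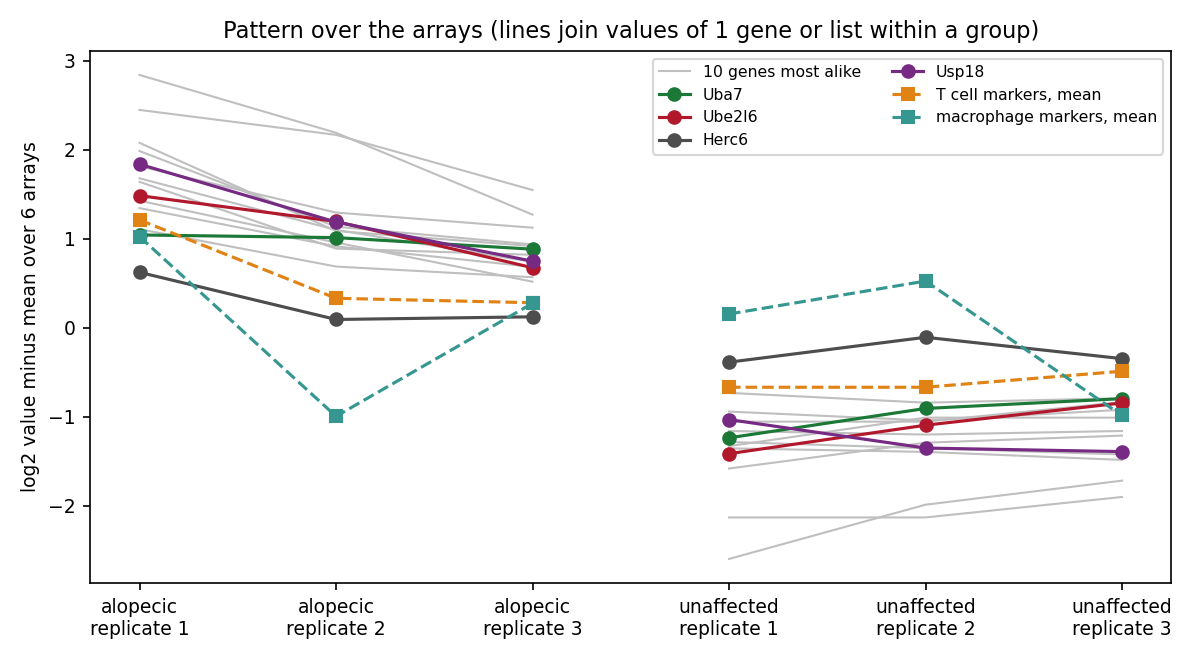
Log2 value minus its mean over 6 arrays (vertical axis) on each array (horizontal axis) for the 4 genes, the 10 genes most alike (grey) and the mean of T cell and macrophage markers (dashed); lines join values within a group and carry no order. The 4 genes and the T cell mean are above 0 in the alopecic and below 0 in the unaffected arrays, and the macrophage mean is not.

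**Figure D5:**
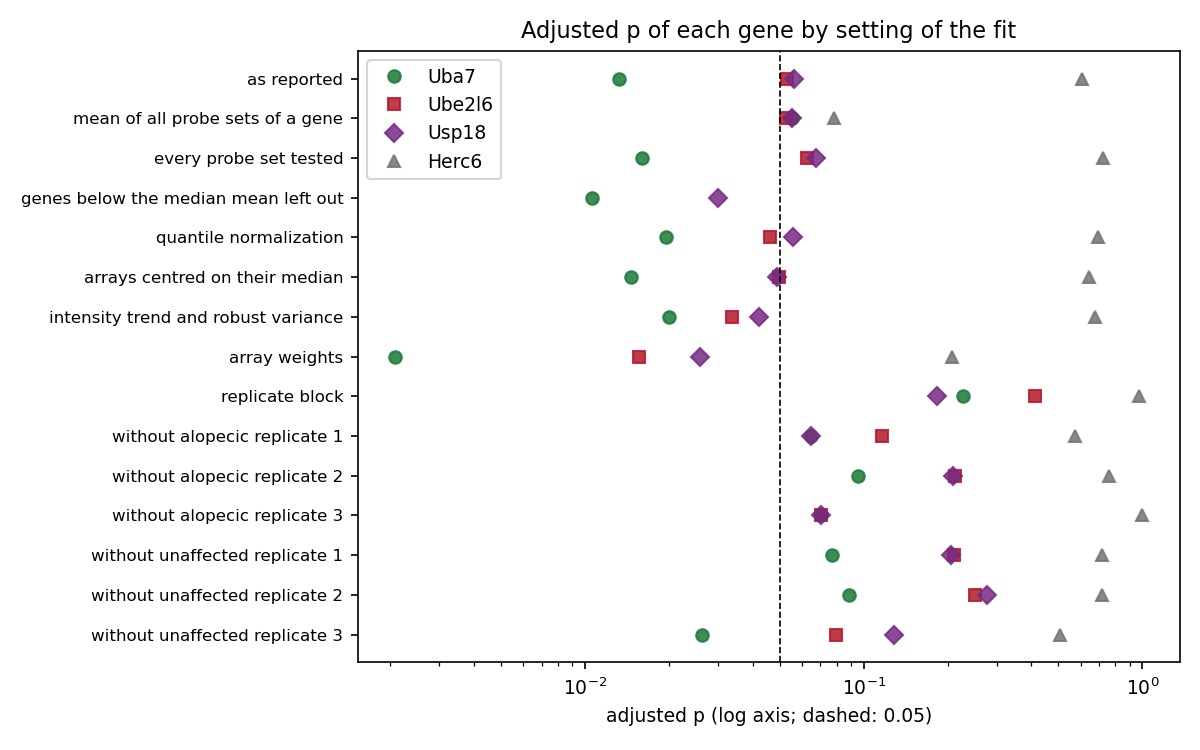
Limma adjusted p (horizontal log axis, dashed line at 0.05) of Uba7, Ube2l6, Usp18 and Herc6 under each setting of the fit (vertical axis). Uba7 lies left of the line in 8 of 15 settings, and Ube2l6 and Usp18 lie close to it on either side in the settings that keep all 6 arrays, except with the replicate block.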

How the data were processed

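Skin RNA of 6 mice was measured on 6 oligonucleotide arrays, 3 per group, grouped by the labels. The deposited values are log2 signals made with RMA (background correction, quantile normalization and probe summary), per the submitters' processing notes. The settings used for RMA are not stated there. The table held 45101 probe sets, 64 of them controls. Gene symbols came from the platform annotation: 34945 probe sets had 1 symbol, 932 several and 9160 none. For 34741 of the probe sets with 1 symbol the gene was found in RefSeq (GRCm38.p6), and its symbol there was used, whether or not it differed. The number of arrays limits the precision, and values ran from 3.07 to 14.92.

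A gene was represented by its brightest single-symbol probe set (18193 genes). Groups were compared with limma 3.58.1 (R 4.3.3), by lmFit followed by eBayes without covariates, with Benjamini-Hochberg adjustment over all genes, over all single-symbol probe sets, or over all 45037 non-control probe sets for the one shared by Isg15, as stated. A planned test of Isg15 alone could not be made, since no probe set carries its symbol alone. Responses of 2 genes were compared by an exact two-sided permutation test of their per-array difference. The fit was tested on simulated data. The labels' replicate numbers do not pair the mice, which were different animals.

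The members, the gene lists and the marker lists were chosen with earlier results of these data known. Genes were named by rule: the members with all probe sets, their paralogs, list members past the threshold, the 3 largest differences in each family, and the 10 genes most alike. Arih1, Itgal, Itgb2, Stat2, Ifnar1, Ifnar2, Ifngr1, Ifngr2 and Irf9 were added after their values were seen. Alternatives were the mean of a gene's probe sets, every probe set, a filter on dim genes, quantile normalization, median centring, a variance trend with robust estimation, array weights, a replicate block and each array left out. Some list and marker genes were not analysed here.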

Additional observations from a re-analysis of the deposited data

Results flagged for a closer look

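The probe set annotated to Isg15 and Gm9706 together, 1431591_s_at, lies outside the single-symbol probe sets on which the comparison rests. It was 3.67 higher in alopecic skin on the log2 scale (limma adjusted p = 0.0493 over 45037 probe sets), and all 3 alopecic arrays were above all 3 unaffected arrays. Its signal cannot be divided between the gene and the pseudogene with these data.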

How the results depend on the processing

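All 59 alternative values of the 4 genes' differences had the sign reported, and 41 kept their side of the threshold. Of the ISG15 system genes 1 passed as reported. The count was 0 with the mean of a gene's probe sets (4 at unadjusted limma p under 0.05), 2 over every probe set, 2 without dim genes (only 2 of the genes were then tested), 2 after quantile normalization, 3 after median centring, 3 with the variance trend, 3 with array weights, and 0 to 1 with 1 array left out. It was 2 with probe sets of several or no symbol tested too, an alternative chosen after seeing the data.

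Uba7 was at 1.56 with the mean of its probe sets (adjusted p = 0.0552) and from 1.83 to 2.05 with 1 array left out. By probe sets 1426971_at and 1437317_at, chosen after seeing the data, it was at 2.42 (adjusted p = 0.0548) and 0.30 (0.897). Ube2l6 passed after quantile normalization at 2.229 (adjusted p = 0.046), after centring at 2.217 (0.0496), with the trend at 2.234 (0.0337) and with array weights at 2.233 (0.0156). Usp18 passed without dim genes at 2.517 (0.03), after centring at 2.501 (0.049), with the trend at 2.517 (0.0422) and with array weights at 2.146 (0.026). Herc6 passed by 1432026_a_at at 2.74 (0.0287). With the mean of probe sets, Uba7 minus Herc6 turned to -0.25.

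Over all genes 48 were higher and 2 lower. Array weights gave 126 and 13, 1 array left out gave 4 to 34 and 0 to 5, and every probe set gave 1 lower. With 1 array left out the partner list had 0 (0 to 0), the signalling list 0 to 2 and the target list 1 (1 to 1) genes past the threshold, and array weights gave 6 targets. Leaving out an array leaves fewer arrays to test.

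The replicate numbers are shared labels of different mice, and deviations of same-numbered arrays correlated at -0.13, -0.20 and -0.33. With the replicate block 0 genes were higher and 0 lower (630 and 243 at unadjusted limma p under 0.05), 0 ISG15 system genes passed (3 unadjusted), 0 of each list passed, and Uba7 stayed at 1.96 (adjusted p = 0.227). Arrays of 3 mice per group, no labelled batch and dim unaffected signals limit these results. The cause of the changes between settings was not tested.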
